A study of Ovis aries with 36 samples.

Results

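The comparison is made up of 6 libraries: the operated infraspinatus of 3 sheep of the N6W arm at the end of the experiment (END, 3 libraries) against the same muscle of the same animals before surgery (PRE, 3 libraries), out of 36 libraries of the series. They were chosen by their sample titles and paired by animal number (2907, 2908 and 2909). At END the tendon of the muscle had been released for 16 weeks and then reattached, 6 weeks had passed since that repair, and the animals had received 150 mg of nandrolone decanoate by weekly injection over those 6 weeks. At PRE, 22 weeks earlier, the muscle was intact and no drug had been given. All animals were female Swiss Alpine sheep, 2 years old, and 3 of the 6 animals that the design text gives for this arm are covered here. END against PRE therefore holds release, repair, drug and the 22 weeks that passed, and these cannot be told apart by the comparison itself. The other libraries of these animals come from the operated muscle at repair after 16 weeks without drug (TR) and from the unoperated muscle (END-CC). END-CC, on the other side, was sampled on the last occasion after the same 6 weeks of drug and has no library from before surgery. N22W animals, given the drug weekly for all 22 weeks, and CONTROL animals, given none, had the same operations and served for comparison. Each library came from pooled cryosections of 1 biopsy site.

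The infraspinatus is a muscle of the rotator cuff, which stabilises and turns the shoulder. When its tendon is detached the muscle loses tension, retracts and shortens, its fibres thin, and fat and connective tissue accumulate. Reattaching the tendon loads the muscle again without, as a rule, bringing back its earlier composition. Nandrolone is a synthetic anabolic steroid that acts through the androgen receptor, and the decanoate ester releases it slowly from the injected muscle.

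Values are normalized reads, that is, reads per gene divided by 1 size factor per library. Recovered reads summed to 14680437 to 24009698 per library at END and to 11879686 to 19974713 at PRE. The depth was uneven within animals: animal 2909 had 21683652 reads and 17349 genes above 0 at END, against 11879686 reads and 15433 genes at PRE. The same transcript led all libraries, with 27.6 to 33.5% of the summed values in the 6. Genes are identified by Ensembl number, and neither the files nor the name table at hand pair these with names, so the tissue could not be checked against its markers and no list of named genes could be described. In a biopsy, a change in the number of cells of a type and a change in RNA per cell cannot be told apart.

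At 6 weeks after repair the operated muscle differed from its state before release in 1016 of 16417 genes tested (6.19%) at a false discovery rate of 0.05 in limma. Of these, 518 genes (3.16%) rose and 498 (3.03%) fell. The rises were larger: their median log2 fold change was 1.04, with 274 genes at least 2-fold higher at END, against a median of −0.65 and 121 genes at least 2-fold lower among those that fell. The fitted changes ran from 0.30 to 7.51 for genes that rose and from −3.08 to −0.30 for genes that fell. The direction was shared by the 3 animals in 498 of the 518 genes that rose and in 490 of the 498 that fell. Every END library lay above every PRE library for 436 of the genes that rose, and below for 428 of those that fell, where 8.3% and 8.44% of all genes tested separated so. These counts come from the libraries that chose the genes and are no further evidence of the change. How many of all genes tested had the same direction in the 3 animals was not counted.

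The count depends on how the spread was estimated and on the animals. The fit took the spread from all 36 libraries with 18 residual degrees of freedom. Without the animal as a block limma called 372 genes. With the 12 N6W libraries alone limma called 233 genes, of which 224 were among the 1016. With the 6 libraries alone it called 0, although 1719 genes had an unadjusted p under 0.05. Leaving out animal 2907 gave 486 genes, of which 383 were among the 1016. Without animal 2908 there were 961 (632 among the 1016), and without animal 2909 355 (247 among them).

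**Figure D1:**
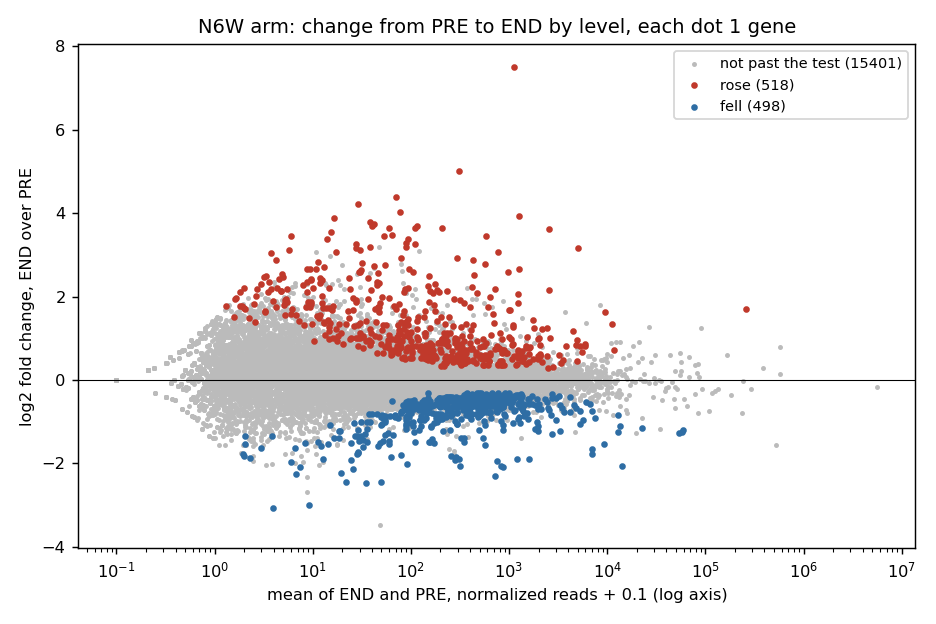
Each dot is 1 of the 16417 genes tested, with the mean of END and PRE in N6W in normalized reads on the x axis (log scale) and the log2 fold change of END over PRE on the y axis. Red dots are the 518 genes that rose, blue dots the 498 that fell and grey dots the genes that did not pass the test. Red dots reach 7.51 and blue dots −3.08, and small changes were called only among genes with high levels.

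Genes that rose and genes that fell differed in level, as the plot of change against level shows. Among 3819 genes with a mean under 10 normalized reads over the 12 N6W libraries, 64 rose (1.68%) and 16 fell (0.419%). Among 4868 genes from 10 to 100 normalized reads 167 rose (3.43%) and 85 fell (1.75%). From 100 to 1000 normalized reads the balance was the other way, with 212 rises (3.39%) and 315 falls (5.04%) among 6252 genes. Above 1000 normalized reads 75 genes rose and 82 fell, of 1478. Low genes need larger changes to pass, and the called ones under 10 normalized reads had median log2 fold changes of 1.98 and −1.79. Whether the deeper END library of animal 2909 bears on the rises of low genes was not tested.

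In sum the genes that rose held 3.79, 4.41 and 4.43% of all values in the END libraries of animals 2907, 2908 and 2909, against 1.53, 1.57 and 1.59% in their PRE libraries. The genes that fell held 2.12, 2.33 and 2.15% at END and 4.05, 4.02 and 4.07% at PRE. These shares describe genes that were chosen for the change and are no further evidence of it. They show that the changed genes were a small part of the RNA at either time.

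The 2 genes with the largest rise among those with a mean of at least 100 normalized reads in the higher group and the same direction in every animal were ENSOARG00000003744 and ENSOARG00000012921. The 2 with the largest fall were ENSOARG00000013082 and ENSOARG00000014005. They were taken from 317 rising and 420 falling genes that met these conditions.

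ENSOARG00000003744 had 427.7, 210.7 and 6118 normalized reads at END in animals 2907, 2908 and 2909, against 0.8991, 10.44 and 3.231 at PRE. The PRE values stand for 1, 8 and 2 reads, so the gene was close to undetected before surgery and its fold change is imprecise. The log2 fold change was 7.51 on the log2(value + 1) scale (SE 0.87, adjusted p = 0.000128 in limma). This SE, like those given below, rests on the spread over all 36 libraries. It does not measure how far the END and PRE pairs of these animals differed. By animal (2907, 2908 and 2909) the log2 fold change was 7.82, 4.21 and 10.50. With only the 6 libraries compared, fewer samples for the spread, the call was lost (adjusted p = 0.262 in limma). The animals thus differed widely in how far the gene rose. At TR, before any drug, it stood at 14.32, 77.02 and 102.3, above PRE and below END in each animal. In the unoperated muscle on the last occasion it stood at 45.34, 149.8 and 102.1, also above PRE in each animal. The END-CC values lay below END in all 3, narrowly so in animal 2908 (log2 difference 0.49) and widely in animal 2909 (5.89).

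ENSOARG00000012921 had 527.8, 158.7 and 1104 normalized reads at END and 17.08, 19.57 and 6.461 at PRE. The log2 fold change of 5.01 had an SE of 0.60 (adjusted p = 0.000128 in limma). By animal (2907, 2908 and 2909) it was 4.87, 2.96 and 7.21. With only the 6 libraries compared the gene did not pass (adjusted p = 0.272 in limma). At TR it stood at 361.7, 429.1 and 256.8, above PRE in each animal. From TR to END it was higher in animals 2907 and 2909 and lower in animal 2908, and the mean difference did not pass (log2 0.40, SE 0.60, adjusted p = 0.887). The unoperated muscle had 85.35, 81.71 and 39.4 normalized reads, below END and above PRE in every animal.

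ENSOARG00000013082 had 361.1, 328.4 and 107.3 normalized reads at END and 1503, 923.6 and 1103 at PRE. The log2 fold change was −2.30 (SE 0.59, adjusted p = 0.0206 in limma). By animal (2907, 2908 and 2909) it was −2.05, −1.49 and −3.35. The call was lost without animal 2907 (−2.42, adjusted p = 0.0814) and without animal 2909 (−1.77, adjusted p = 0.216). It was also lost with only the 6 libraries compared (adjusted p = 0.279 in limma). At TR the gene stood at 586.1, 558.9 and 348.3. The unoperated muscle at the end had 546.8, 339.2 and 185.3, well below all PRE values, so both sides were low on the last occasion.

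ENSOARG00000014005 had 423.4, 507.6 and 130.5 normalized reads at END and 1616, 815.3 and 1669 at PRE. Its log2 fold change was −2.09, with an SE of 0.42 (adjusted p = 0.00504 in limma), and did not pass without animal 2909 (−1.31, adjusted p = 0.14). By animal (2907, 2908 and 2909) the change was −1.93, −0.68 and −3.67. With only the 6 libraries compared the gene did not pass (adjusted p = 0.382 in limma). At TR it stood at 584.9, 383.6 and 249.6, and in the unoperated muscle at 484.1, 366.4 and 307.9. Every TR, END and END-CC library of the arm lay below every PRE library for this gene. Animal 2909 again had the lowest END value.

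**Figure D2:**
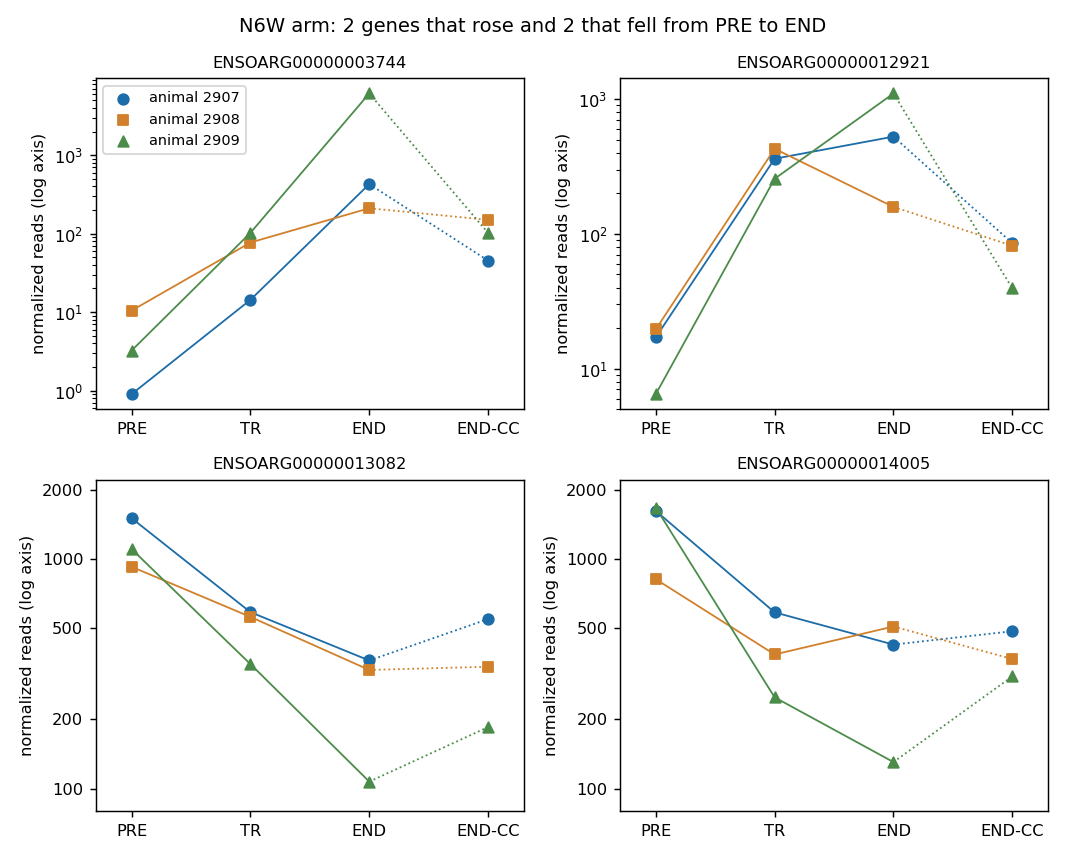
Normalized reads (y axis, log scale) of the 4 genes in the 12 N6W libraries by occasion (x axis), 1 symbol and colour per animal. Solid lines join the operated muscle at PRE, TR and END, and dotted lines lead to the unoperated muscle at END-CC. The upper genes stand highest at END in most animals and lie between PRE and END at END-CC, while the lower genes are below PRE on all later occasions.

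How far the change extended differed between the animals. Among 7730 genes with a mean of at least 100 normalized reads over the N6W libraries, animal 2909 had 431 genes at least 2-fold higher and 405 at least 2-fold lower at END than at PRE. Animal 2907 had 217 and 98, and animal 2908 had 134 and 102. The median absolute log2 change of these genes was 0.37 in animal 2909, 0.23 in animal 2907 and 0.21 in animal 2908. Animal 2909 also had the largest median change at TR, 0.36, before any drug, against 0.22 in animal 2907 and 0.24 in animal 2908. In the unoperated muscle the 3 animals were closer, with 0.27, 0.22 and 0.27 in animals 2907, 2908 and 2909. The END and TR libraries of animal 2909 were deeper than its PRE library, and the part of depth in these values was not tested.

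To see the change in libraries that had not chosen the genes, genes were called without 1 animal and then read in that animal. The 313 genes that rose without animal 2907 had a median log2 change from PRE to END of 0.62 in animal 2907. The 522 that rose without animal 2908 had one of 0.36 in animal 2908, and the 197 that rose without animal 2909 one of 0.30 in animal 2909. The shares of these genes that were higher at END in the animal left out were 78.9, 76.1 and 64.5%, where 46.1, 49.6 and 53.2% of all genes tested were higher in the same animals. Genes that fell carried over as well: 173, 439 and 158 genes had medians of −0.62, −0.27 and −0.43 in animals 2907, 2908 and 2909. Of these 94.8, 82.0 and 77.8% were lower at END, against 52.2, 47.5 and 45.4% of all genes. The direction thus carried over to each animal, with smaller changes than in the genes' own selection and least clearly for rises in animal 2909.

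The occasions between showed when these genes had moved. In the animals left out, genes that rose already had median log2 changes from PRE to TR of 0.31, 0.51 and 0.22 in animals 2907, 2908 and 2909, and genes that fell had −0.49, −0.30 and −0.38. From TR to END, the genes that rose moved by medians of 0.25 in animal 2907, −0.28 in animal 2908 and 0.06 in animal 2909, so the direction after repair was not shared. The genes that fell moved by −0.19, −0.02 and −0.07. For all 1016 genes called from all animals, the median change from PRE to TR was 0.79 for genes that rose and −0.52 for those that fell. That change and END minus PRE share the PRE libraries.

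**Figure D3:**
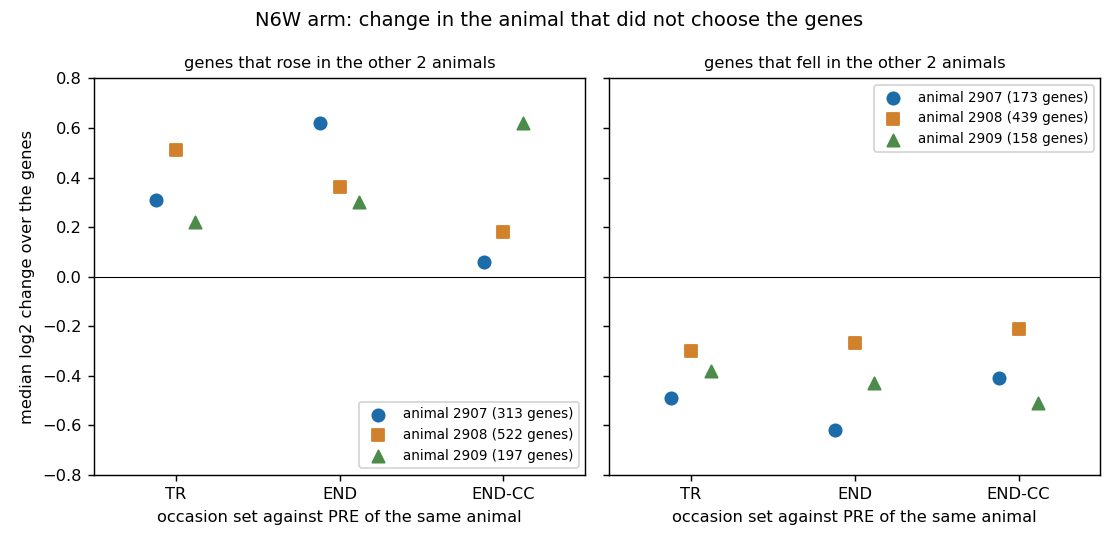
Median log2 change from PRE (y axis) over genes called from PRE to END without the animal shown, on each later occasion (x axis), 1 symbol and colour per animal. Genes that rose are on the left and genes that fell on the right, with their number in the legend. END-CC is the unoperated muscle, set against PRE of the operated one. All medians at END lie between 0.30 and 0.62 for rises and between −0.62 and −0.27 for falls, and at END-CC the rises range from 0.06 to 0.62.

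The test of the 6 weeks after repair called few genes in the operated muscle, and the number moved with the method. END differed from TR in 14 genes (0.0853% of those tested) in limma, of which 8 rose (0.0487%) and 6 fell (0.0365%), and 1628 genes had an unadjusted p under 0.05. DESeq2 called 86 genes, edgeR 24, and limma 0 with only the 12 N6W libraries (1080 at an unadjusted p under 0.05). Genes that did not pass are not shown to be unchanged. In limma 0 genes passed when animal 2907 was left out (1704 at an unadjusted p under 0.05), 3 when animal 2908 was and 20 when animal 2909 was. None of the 4 genes above was among the 14: ENSOARG00000003744 had the largest difference of them, a log2 of 4.04 (SE 0.87, adjusted p = 0.0762 in limma), and ENSOARG00000014005 the smallest, −0.33 (SE 0.42, adjusted p = 0.862).

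The unoperated muscle at the end differed from PRE in the same direction for many of these genes. PRE was taken from the muscle that was later operated on, so the other side had no baseline of its own. The 518 genes that rose had a median log2 change of 1.04 from PRE to END, beside 0.52 from PRE to END-CC (0.44, 0.50 and 0.58 in animals 2907, 2908 and 2909). The 498 genes that fell had −0.65 at END, beside −0.42 at END-CC (−0.40, −0.36 and −0.49). Both differences are taken from the same PRE libraries, so a PRE library that is off moves both alike. In animals that had not chosen the genes, those that fell had medians at END of −0.62, −0.27 and −0.43 and at END-CC of −0.41, −0.21 and −0.51. Genes that rose had medians at END of 0.62, 0.36 and 0.30 and at END-CC of 0.06, 0.18 and 0.62, so the sides differed in animal 2907 and lay the other way round in animal 2909.

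The sides on the last occasion were tested against each other as END minus END-CC. Without a library of the other side from before surgery, this cannot separate a different change from a difference already present. In N6W 677 genes (4.12% of those tested) differed in limma, 418 higher (2.55%) and 259 lower (1.58%) in the operated muscle. This result rested on animal 2909: without it 2 genes were called, without animal 2907 318 and without animal 2908 1213. Limma called 0 genes with the 12 N6W libraries (2857 at an unadjusted p under 0.05) and 195 with the 24 libraries scaled together. DESeq2 called 595 higher and 616 lower, an even split where limma had 61.7% higher. Animal 2909 had 454 of the 7730 genes at least 2-fold higher and 482 at least 2-fold lower in its operated muscle, against 54 and 34 in animal 2908.

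Among the 4 genes, both that rose stood higher on the operated side. They had been chosen for their rise in the same END libraries, which raises this difference. Their p-values here are therefore not independent of the choice. ENSOARG00000003744 differed by a log2 of 3.20 (SE 0.87, adjusted p = 0.0424) and ENSOARG00000012921 by 2.78 (SE 0.60, adjusted p = 0.0181) in limma. Without animal 2907 the log2 differences were 3.19 and 2.86 and did not pass (adjusted p = 0.113 and 0.0561), and without animal 2909 they were 1.85 and 1.78 (adjusted p = 0.566 and 0.423). With only the 12 N6W libraries neither passed (adjusted p = 0.192 and 0.143), nor with only the 6 libraries compared (0.331 for both). The call of ENSOARG00000003744 was also lost without a filter (adjusted p = 0.062), with the 24 libraries (0.0656) and without the replicate block (0.218). For the 2 genes that fell no difference between the sides was detected: ENSOARG00000013082 had a log2 difference of −0.48 (SE 0.59, adjusted p = 0.654) and ENSOARG00000014005 one of −0.32 (SE 0.42, adjusted p = 0.681).

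The other arms share no library with N6W, and these genes were read there as well. In N6W the 518 genes had a median END minus END-CC of 0.54 on the log2 scale (0.41, 0.30 and 0.78 in animals 2907, 2908 and 2909), which the choice of genes by these END libraries raises. Other lists, called without 1 animal, were read in that animal. Their 313, 522 and 197 rising genes had medians of 0.54, 0.12 and −0.34 in animals 2907, 2908 and 2909. Their 173, 439 and 158 falling genes had −0.24, −0.07 and 0.11. The sides thus did not differ in the same direction in animal 2909. In N22W the median of the 518 genes was 0.40 (0.38, 0.41 and 0.45 in the 3 animals), and 84.9% of the genes were higher on the operated side, where 55.0% of all genes were. In CONTROL, without drug, it was 0.53 (0.63, 0.44 and 0.49), with 78.6% higher against 54.4% of all genes. The 498 genes that fell had medians of −0.24 in N6W, where they had been chosen, −0.20 in N22W and −0.28 in CONTROL, with 76.1% lower in N22W and 77.3% lower in CONTROL, where 44.9 and 45.5% of all genes were. The genes had been called with a spread to which these libraries contributed. With the 113 and 120 genes called from N6W libraries alone, the N22W medians were 0.63 and −0.19 and the CONTROL medians 0.82 and −0.26.

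**Figure D4:**
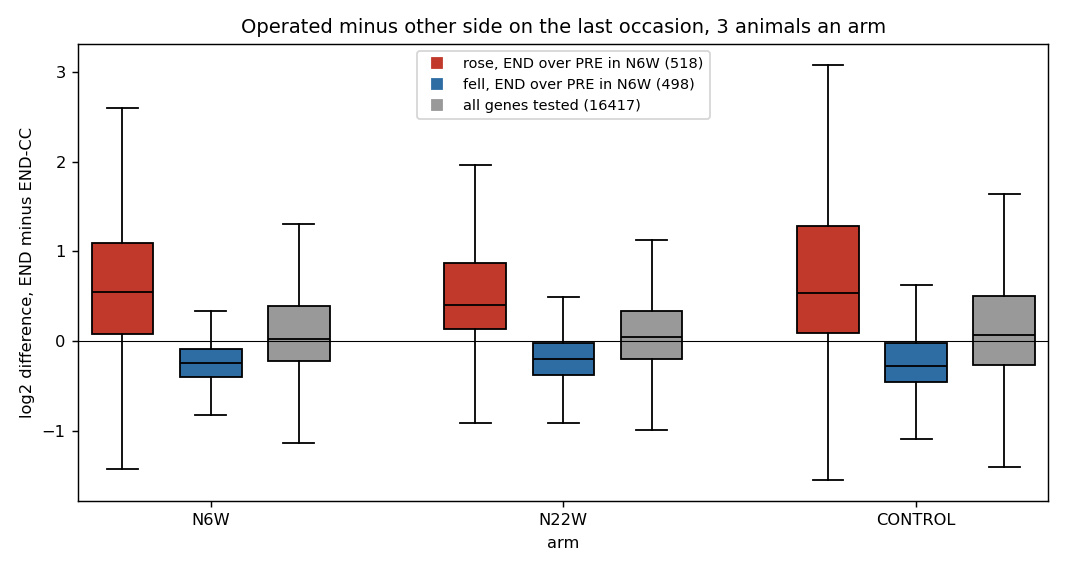
Log2 difference between operated and other side on the last occasion (y axis) in the 3 arms (x axis), for genes that rose (red) or fell (blue) from PRE to END in N6W and for all genes tested (grey). Boxes span the quartiles over genes with the median as a line, and whiskers reach the farthest gene within 1.5 box lengths. Red medians are 0.54, 0.40 and 0.53 and blue medians −0.24, −0.20 and −0.28 in N6W, N22W and CONTROL, and those of N6W come from libraries that chose the genes.

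The change from PRE to TR in CONTROL, made without drug or repair, pointed the same way. It spans 16 weeks as well as the release, and the unoperated muscle has no library from TR. What the release itself added to this change was therefore not tested. From PRE to TR in CONTROL the 518 genes had a median log2 change of 0.40 and the 498 genes one of −0.36, and 79.5 and 88.6% had the direction seen in N6W, against 44.6 and 55.4% of all genes. The single genes of the text did so too. ENSOARG00000003744 stood at 249.3, 144 and 18.12 normalized reads at TR in CONTROL, against 4.367, 6.026 and 0 at PRE, and ENSOARG00000012921 at 241.9, 406.8 and 168.5, against 19.65, 54.23 and 19.64. For both genes the groups did not overlap, and the share of all genes that separated so in CONTROL was not counted. ENSOARG00000013082 and ENSOARG00000014005 averaged 694 ± 332 and 1010 ± 554 at TR in CONTROL and 1813 ± 1065 and 1488 ± 506 at PRE (SD, n = 3 each). The groups overlapped for both, while within animals both were lower at TR in each pair, with log2 differences of −0.82, −1.99 and −1.01 for ENSOARG00000013082 and −1.06, −0.12 and −0.83 for ENSOARG00000014005 in animals 2901, 2902 and 2903.

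No gene was found in which 6 weeks of nandrolone went with a different contrast between the sides. The difference between END and END-CC in N6W, less that in CONTROL, passed in 0 of 16417 genes (0%) in limma, with 672 at an unadjusted p under 0.05, and in 0 by edgeR (560 at an unadjusted p under 0.05) and DESeq2. For ENSOARG00000003744 it was 0.09 (SE 1.23), for ENSOARG00000012921 −0.94 (SE 0.85) and for ENSOARG00000014005 0.11 (SE 0.59), with wide errors. ENSOARG00000013082 was lower on the operated side in all N6W animals (log2 differences of −0.60, −0.05 and −0.78) and higher in all CONTROL animals (0.67, 0.62 and 0.51), but the difference between the arms, −1.07 (SE 0.83), had an adjusted p of 1 in limma.

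Medians over genes of the difference between arms on the last occasion lay near 0, which does not show that single genes were alike. In the unoperated muscle, N6W lay above CONTROL by a median log2 of 0.07 over the 518 genes and differed by −0.05 over the 498, against −0.01 over all genes. In the operated muscle, whose N6W libraries had chosen the genes, the medians were 0.02, −0.04 and −0.02. Of the 498 genes 39.6% were higher in N6W than in CONTROL on either side, against 47.1% of all genes at END and 48.0% at END-CC. Of the 518 genes 51.5% were higher in N6W at END and 57.7% at END-CC. Single N6W animals ranged from −0.12 to 0.27 over the 518 genes at END, with animal 2909 highest. Single genes lay further apart: ENSOARG00000003744 averaged 2252 ± 3350 normalized reads at END in N6W and 754 ± 1206 in CONTROL, and ENSOARG00000014005 354 ± 198 in N6W and 747 ± 490 in CONTROL (SD, n = 3 each). The libraries of both arms overlapped for each of these genes. No test was made of these levels. The change from PRE was not set against that of CONTROL, since 591 genes lay over 8-fold higher in every library of the set that holds CONTROL PRE and TR than in every library of the set that holds N6W.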

How the data were processed

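The deposited files hold 1 signal value per Ensembl gene and library for 25197 genes. Per the submitters' processing notes STAR 2.3.0e, R 3.0.2 and the assembly Oar_v3.1 were used, without a stated role, and the counting tool and type of size factor are not stated there or in the files. Per the labels' protocols the libraries were stranded and made from total RNA after removal of ribosomal RNA. In each library the values are whole multiples of 1 step, with at most 4 significant digits, so reads were recovered by division: 100.0% of values of at most 100 reads came within 0.1 of an integer in every library. The geometric mean of the steps was 0.999 for 12 libraries (PRE and TR of N22W and CONTROL) and 1.000 for the other 24, so these sets were scaled apart, and 591 genes lay over 8-fold higher in every one of the 12 than in every one of the 24. N6W lies wholly in the set of 24.

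The authors' scaling was kept. Genes with a median of at least 0.5 over the 36 libraries were tested with limma 3.58.1 (mean-dependent prior) on log2(value + 1), with a mean per arm and occasion and the animal as a block, two-sided, Benjamini-Hochberg over 16417 genes. Fold changes on this scale are understated for low genes. On the recovered reads edgeR 4.0.16 called 885 genes and DESeq2 1.42.0 1195 from PRE to END. The test was checked on simulated reads with the same spread per gene in all libraries and no animal effect. That check does not bear on the animal block or on animals of unequal spread. Animals pair the libraries because each animal was biopsied repeatedly. Deviations from group means correlated between PRE and END with r of 0.12, 0.08 and 0.00 for animals 2907, 2908 and 2909. Between different animals r ran from −0.11 to 0.01, so the pairing was weak for this comparison. Between TR and END it was 0.42, 0.30 and 0.57 in the same animals. Whether a block fitted over all occasions suits END minus PRE was not tested. Libraries within N6W groups differed by more than sampling noise (median chi-square per gene 1.71 to 13.56 over 12 pairs). The highest values, 13.56 and 10.94, were those of the END pairs with animal 2909, against 2.01 for the END pair without it. Of the identifiers 0 matched the 35057 entries of the name table, so the named genes are the 2 largest rises and falls with the same direction in 3 animals and a mean of at least 100 in the higher group, and planned gene lists were not used. The comparison, the genes and the tests were chosen with earlier results of these data known, and the medians between arms were added after the data had been seen.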

Additional observations from a re-analysis of the deposited data

How the results depend on the processing

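The count of genes that changed from PRE to END in N6W stayed within 1.5 times of 1016 under 6 settings other than leaving out an animal: 1028 with a pseudocount of 0.5, 848 without a filter, 1070 with TMM scaling in limma, 885 in edgeR, 1195 in DESeq2 and 884 with the 24 libraries scaled together. It was 372 without the replicate block, that is, ignoring the pairing. That pairing was weak between PRE and END (r of 0.12, 0.08 and 0.00). The count was 233 with the 12 N6W libraries and 0 with the 6 END and PRE libraries (1719 at an unadjusted p under 0.05). With 1 N6W animal left out it ran from 355 to 961. END minus END-CC was called in 677 genes, against 413 without a filter, 1211 in DESeq2, 195 with the 24 libraries, 116 without the replicate block, 0 with the 12 N6W or the 6 libraries (2857 and 2409 at an unadjusted p under 0.05) and 2 to 1213 with an animal left out. END minus TR was called in 14 genes, against 9 without a filter, 24 in edgeR, 86 in DESeq2, 8 with the 24 libraries, 2 without the replicate block, 0 with the 12 N6W libraries (1080 at an unadjusted p under 0.05), 7 with the 6 libraries and 0 to 20 with an animal left out. The difference of N6W from CONTROL between the sides gave 0 genes under all 13 alternatives. Its genes at an unadjusted p under 0.05 in limma were 672 in the full fit, 400 without the replicate block and 1398 without animal 2909.

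The 4 named genes kept their direction from PRE to END in 48 refits and lost the call in 8, among them all 4 with only the 6 libraries compared. ENSOARG00000013082 lost it without the replicate block (adjusted p = 0.157). END minus END-CC of ENSOARG00000014005 was −0.32 in the full fit and ran from −0.71 to 0.14 with 1 animal left out, positive without animal 2909. With genes called by edgeR the median of the rising genes was 0.45 for END minus END-CC in N22W and 0.49 for TR minus PRE in CONTROL. With genes called from the 12 N6W libraries the rising genes had medians of 1.12 (TR minus PRE) and 0.89 (END-CC minus PRE) in N6W, 0.82 (END minus END-CC) and 0.76 (TR minus PRE) in CONTROL and 0.63 (END minus END-CC) in N22W, and the falling genes −0.73 (END-CC minus PRE) in N6W. In animals left out, the rising genes called by edgeR had a median of 0.81 at END in animal 2907. Called from N6W libraries alone, 3 rising genes had medians of 2.77 at TR, 2.96 at END and 2.01 at END-CC in animal 2908, 50 rising genes 0.76 at END in animal 2909, and 40 falling genes −0.80, −0.83 and −0.88 at TR, END and END-CC in animal 2909. The cause of these shifts was not tested; settings with fewer libraries estimate the spread from fewer samples.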
